A study of Mus musculus with 9 samples.

Results

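RNA levels of 7 Toll-like receptors (Tlr1, Tlr2, Tlr3, Tlr4, Tlr7, Tlr9 and Tlr13), the co-receptors Cd14 and Ly96 and the adaptor Myd88 were compared between uninjured cord, injured cord and injured cord under an inhibitor of phospholipase D. These 10 genes were chosen by symbol for their place at the start of innate sensing. No measured value entered the rule, but earlier results of these data were known when the genes were chosen. They are 10 of the 52550 genes in the count table, and all 10 passed the filter on low counts that left 18699 genes to test. Both contusion groups had 9 of the 10 genes at higher levels than the Sham group, by 3.07-fold (Myd88) to 13.4-fold (Tlr13) without the inhibitor, and Tlr3 was the exception. Under FIPI only Tlr7 passed the test against the SCI group, where its level fell by 36.6%, and that call was lost in some of the alternative fits.

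Toll-like receptors sense molecules of microbes and molecules set free from damaged cells. Tlr1, Tlr2, Tlr4 and Tlr6 act at the cell surface on lipids, lipoproteins and matrix fragments, whereas Tlr3, Tlr7, Tlr8, Tlr9 and Tlr13 act in endosomes on nucleic acids. Cd14 hands lipopolysaccharide to the pair of Tlr4 and Ly96 (also called MD-2), and Myd88 carries the signal of every Toll-like receptor but Tlr3 to the IRAK kinases, Traf6 and NF-kappaB. In the spinal cord these genes are known mainly from microglia and from macrophages that enter after injury, while Tlr3, which signals through Ticam1 (TRIF), is also found in astrocytes and neurons.

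The data were gene counts of spinal cord from 9 adult female C57BL/6N mice, 3 in each group, all taken on day 7. The Sham group had a laminectomy alone, the SCI group a contusion at vertebral level T10 followed by the vehicle DMSO into the peritoneum, and the SCI+FIPI group the same contusion followed by FIPI, a small molecule that blocks phospholipase D, by the same route every day. Each sample was the stretch of cord around the epicenter, so that every cell type of the lesion and its rim entered the library. No injection of vehicle is described for Sham mice, and the effects of contusion and of vehicle therefore cannot be told apart in the comparison of SCI with Sham.

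Total counts per mouse lay between 20806000 and 24582377, and mice of a group differed by more than sampling noise. Markers of the labelled tissue were abundant, with a summed level in the Sham mice of 6700 to 7480 CPM for 8 neuron genes and of 32400 to 33900 CPM for 6 oligodendrocyte genes. CPM here are counts scaled to a library of the same size in every mouse, with edgeR's TMM factors. FPKM are counts divided by the total count, without those factors, and by exonic length. Levels of different genes are set side by side only in FPKM. Counts were tested by the quasi-likelihood test of edgeR, with p-values adjusted by Benjamini and Hochberg's method over all genes tested, and a gene passed when its log2 fold change reached 0.5 in size and its adjusted p-value was under 0.05. Fold changes are given as log2 with the standard error (SE).

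RefSeq promoter windows of GRCm38.p6 were found for 6 of the 10 genes (Tlr1, Tlr2, Tlr3, Tlr9, Tlr13 and Myd88), in all 7 windows since Tlr1 has a pair of starts, and not for Tlr4, Tlr7, Cd14 and Ly96. The 250 bases before the RefSeq start are shown for Tlr2, whose mean FPKM was the highest among the receptors of injured cord, for Tlr13, with the largest fold change after injury, for Tlr3, which did not pass, and for the shared adaptor Myd88. Capitals mark matches on either strand to the core of the interferon-stimulated response element (GAAA, 2 bases of any kind, GAAA), the core bound by PU.1 (GAGGAA), a pair of NF-kappaB half-sites (GGG, 5 bases of any kind, CC, in which overlapping matches were counted separately) and the TATA box (TATAAA). The sequences run 5′ to 3′ on the strand of the gene.
Tlr2, chr3:83841609-83841858, reverse strand: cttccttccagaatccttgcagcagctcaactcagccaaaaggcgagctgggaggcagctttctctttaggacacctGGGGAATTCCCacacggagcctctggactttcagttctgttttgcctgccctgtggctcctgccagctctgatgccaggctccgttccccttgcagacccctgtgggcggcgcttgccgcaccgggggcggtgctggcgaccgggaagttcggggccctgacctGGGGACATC
Tlr13, chrX:106143025-106143274, forward strand: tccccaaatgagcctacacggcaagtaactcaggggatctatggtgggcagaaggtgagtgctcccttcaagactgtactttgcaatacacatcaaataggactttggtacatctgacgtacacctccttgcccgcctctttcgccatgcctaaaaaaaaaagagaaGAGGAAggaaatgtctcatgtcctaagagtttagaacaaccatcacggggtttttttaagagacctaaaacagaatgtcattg
Tlr3, chr8:45410381-45410630, reverse strand: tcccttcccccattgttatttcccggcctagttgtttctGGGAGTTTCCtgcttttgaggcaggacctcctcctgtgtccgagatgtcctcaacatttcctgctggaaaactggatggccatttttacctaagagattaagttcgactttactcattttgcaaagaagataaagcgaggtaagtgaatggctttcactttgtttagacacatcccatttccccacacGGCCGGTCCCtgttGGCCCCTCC
Myd88, chr9:119340019-119340268, reverse strand: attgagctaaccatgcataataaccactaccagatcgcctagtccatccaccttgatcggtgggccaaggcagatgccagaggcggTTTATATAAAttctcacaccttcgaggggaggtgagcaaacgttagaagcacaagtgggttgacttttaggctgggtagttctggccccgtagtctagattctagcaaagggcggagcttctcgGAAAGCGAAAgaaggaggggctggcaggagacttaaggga
The capitals at the end of the Tlr2 and Tlr3 sequences belong to matches that run on past the start. The starts of all 4 genes shown lie inside the genes as GENCODE M21 draws them, downstream of their outermost start.

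Tlr2 held the half-site pair in runs beginning 173 and 9 bases before the start and Tlr3 in runs beginning 211, 23 and 9 bases before it, a motif that 50.8% of all 32851 windows held. The PU.1 core was found in 3 of the 7 windows, those of Tlr9, Tlr13 and 1 start of Tlr1, against 28.3% of all windows, and lay 83 bases before the start in Tlr13. Myd88 was the one member with the interferon-stimulated core (3.44% of all windows), 40 bases before the start, and with a TATA box (13.6% of all windows). These matches describe letters in a window, and binding was not measured.

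**Figure D1:**
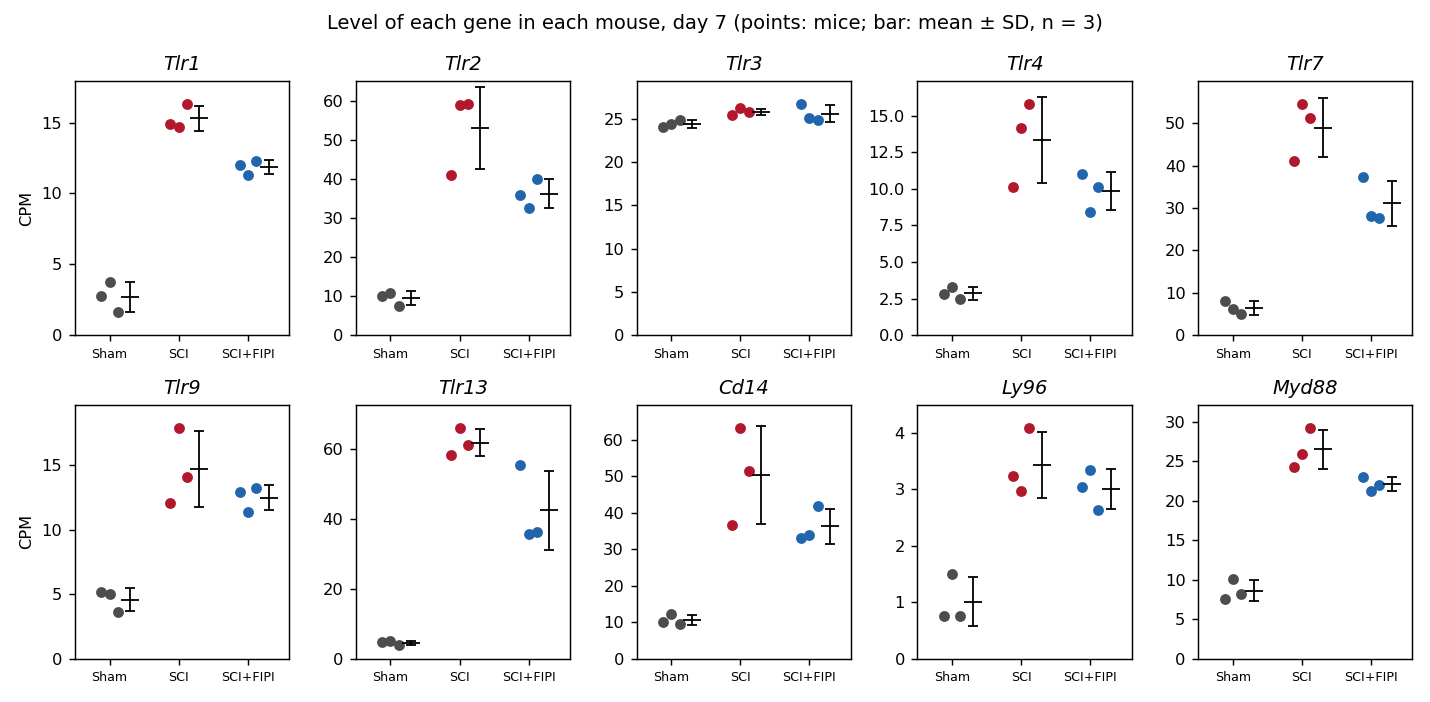
Level of each of the 10 genes in every mouse, in CPM on linear axes that start at 0, with 1 point per mouse and the mean ± SD (n = 3) of each group beside the points. For 9 genes all 6 contused mice lie above all 3 Sham mice, whereas the points of Tlr3 lie between 24.0 and 26.7 CPM in all 9 mice.

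Among the surface receptors, Tlr2 (ENSMUSG00000027995, chromosome 3, 83836272 to 83841767) and its partner Tlr1 (ENSMUSG00000044827, chromosome 5, 64924679 to 64933563) form the receptor for triacylated lipoproteins. Tlr2 had 10.1, 10.9 and 7.51 CPM in the Sham mice and 41.0, 59.0 and 59.1 CPM in the SCI mice. With FIPI it had 35.8, 32.6 and 40.0 CPM. The 3 groups did not overlap, although SCI mouse 1 lay close to SCI+FIPI mouse 3. After injury the level of Tlr2 rose 5.59-fold (log2 2.48, SE 0.181, adjusted p = 1.1e-06, edgeR). Under FIPI the level differed from that of the SCI group by a log2 fold change of -0.56 (95% interval -0.92 to -0.19, adjusted p = 0.0628, edgeR), which did not pass.

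Tlr1 had 2.73, 3.75 and 1.63 CPM in the Sham mice, 14.9, 14.7 and 16.3 CPM in the SCI mice and 12, 11.3 and 12.3 CPM in the SCI+FIPI mice. Again no groups overlapped. The rise after injury was 5.67-fold (log2 2.50, SE 0.199, adjusted p = 1.17e-07, edgeR), and the difference under FIPI was -0.37 on the log2 scale (95% interval -0.741 to 0.002, adjusted p = 0.201, edgeR). Tlr1 shares 15.3% of its 50-base stretches with Tlr6, its paralog, so that counts of the pair may be split between them. Tlr6, which pairs with Tlr2 on diacylated lipoproteins, had 1.00 to 1.38 CPM in the Sham mice, 7.50 to 8.05 CPM in the SCI mice and 4.62 to 7.46 CPM in the SCI+FIPI mice, and rose 6.73-fold after injury (log2 2.75, SE 0.206, adjusted p = 2.46e-08, edgeR).

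Tlr4 (ENSMUSG00000039005, chromosome 4, 66827584 to 66930284) is the receptor for lipopolysaccharide. Its level was 2.82, 3.32 and 2.46 CPM in the Sham mice, 10.1, 14.2 and 15.8 CPM in the SCI mice and 11, 8.43 and 10.1 CPM in the SCI+FIPI mice. Both contused groups lay above Sham, and SCI mouse 1 fell within the range of the SCI+FIPI mice. Tlr4 rose 4.65-fold after injury (log2 2.22, SE 0.186, adjusted p = 9.34e-08, edgeR). The log2 fold change under FIPI was -0.44 (95% interval -0.795 to -0.088, adjusted p = 0.107, edgeR).

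Cd14 (ENSMUSG00000051439, chromosome 18, 36725067 to 36726798), the co-receptor that delivers lipopolysaccharide and also serves Tlr2 and Tlr3, had 10.2, 12.2 and 9.64 CPM in the Sham mice and 36.5, 63.2 and 51.3 CPM in the SCI mice. The SCI+FIPI mice had 33.0, 33.9 and 41.8 CPM, and their range took in SCI mouse 1. Cd14 rose 4.72-fold after injury (log2 2.24, SE 0.214, adjusted p = 2.08e-05, edgeR), with a log2 fold change under FIPI of -0.47 (95% interval -0.921 to -0.026, adjusted p = 0.175, edgeR).

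Ly96 (ENSMUSG00000025779, chromosome 1, 16688051 to 16709611), the subunit of the Tlr4 complex that binds the lipid, was the least counted of the 10 genes. Its counts were 16, 35 and 18 in the Sham mice, 77, 72 and 97 in the SCI mice and 68, 79 and 63 in the SCI+FIPI mice. All contused mice lay above Sham, and the contused groups overlapped. Ly96 rose 3.37-fold after injury (log2 1.76, SE 0.268, adjusted p = 3.74e-05, edgeR). Under FIPI its log2 fold change was -0.19, with a 95% interval from -0.695 to 0.317 that covers a fall past the limit of 0.5 and no difference alike.

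Of the endosomal receptors, Tlr13 (ENSMUSG00000033777, chromosome X, 106143204 to 106160493), which recognizes a stretch of bacterial ribosomal RNA and has no human counterpart, had the largest fold change of the 10 genes. It had 4.79, 5.09 and 3.92 CPM in the Sham mice and 58.2, 65.9 and 61.0 CPM in the SCI mice. The SCI+FIPI mice had 55.3, 35.6 and 36.1 CPM, so that mouse 1 of that group lay close to the SCI mice and the other two well below them. Tlr13 rose 13.4-fold after injury (log2 3.75, SE 0.198, adjusted p = 1.26e-07, edgeR), which ranked 173 from the top among the 18699 genes. Under FIPI the log2 fold change was -0.55 (95% interval -0.907 to -0.183, adjusted p = 0.0651, edgeR). Without SCI+FIPI mouse 1 it was -0.78 (adjusted p = 0.00243, edgeR) and passed.

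Tlr7 (ENSMUSG00000044583, chromosome X, 167304929 to 167330558), a sensor of single-stranded RNA, had 8.09, 6.08 and 5.05 CPM in the Sham mice. The SCI mice had 41.1, 54.5 and 51.2 CPM, and the SCI+FIPI mice 37.3, 28.2 and 27.7 CPM. No groups overlapped, and the nearest values of the contused groups were those of the mice numbered 1. The level rose 7.67-fold after injury (log2 2.94, SE 0.192, adjusted p = 4.25e-07, edgeR). Tlr7 was the one member called under FIPI, with a log2 fold change of -0.66 (SE 0.166, 95% interval -1.03 to -0.28, adjusted p = 0.0389, edgeR), by which its level fell by 36.6%. The call did not hold without SCI mouse 2 or 3 or without SCI+FIPI mouse 2 or 3, at log2 fold changes of -0.57, -0.62, -0.59 and -0.58 and adjusted p-values of 0.118, 0.152, 0.16 and 0.118 (edgeR).

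Tlr9 (ENSMUSG00000045322, chromosome 9, 106222598 to 106226883), the receptor for unmethylated CpG DNA, had 5.17, 5 and 3.59 CPM in the Sham mice, 12.1, 17.9 and 14.1 CPM in the SCI mice and 12.9, 11.4 and 13.2 CPM in the SCI+FIPI mice. The contused groups lay above Sham and overlapped each other. Tlr9 rose 3.21-fold after injury (log2 1.68, SE 0.165, adjusted p = 4.77e-07, edgeR), and its log2 fold change under FIPI was -0.23 (95% interval -0.558 to 0.092, adjusted p = 0.367, edgeR). Tlr8, a close relative of Tlr7 that lies outside the 10 genes, was counted only 5 to 19 times in the Sham mice and 267 to 389 times in the SCI mice, a rise of 28.3-fold (log2 4.82, SE 0.39, adjusted p = 1.77e-06, edgeR). Under FIPI it was counted 155 to 274 times (log2 -0.58, 95% interval -1.175 to 0.02, adjusted p = 0.215, edgeR).

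Tlr3 (ENSMUSG00000031639, chromosome 8, 45395665 to 45411080), the receptor for double-stranded RNA, did not pass in any of the 3 comparisons. Its levels were 24.0, 24.4 and 24.9 CPM in the Sham mice, 25.5, 26.2 and 25.8 CPM in the SCI mice and 26.7, 25.1 and 24.9 CPM in the SCI+FIPI mice. Every SCI mouse lay above every Sham mouse, by little. The log2 fold change after injury was 0.08 (95% interval -0.071 to 0.229, adjusted p = 0.337, edgeR), so that the interval stayed within the limit of 0.5 on both sides, and under FIPI it was -0.01 (95% interval -0.164 to 0.135, adjusted p = 0.929, edgeR). With a correction for GC content and length the value after injury was 0.29 (adjusted p = 0.00137, edgeR), still under the limit on the fold change. Gm45542 overlaps exons of Tlr3 on the opposite strand, and whether counting used the strand is not given in the sources used here.

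Myd88 (ENSMUSG00000032508, chromosome 9, 119335934 to 119341411), the shared adaptor, had 7.61, 10.1 and 8.14 CPM in the Sham mice, 24.3, 25.9 and 29.2 CPM in the SCI mice and 23.0, 21.2 and 22 CPM in the SCI+FIPI mice. The groups did not overlap. After injury Myd88 rose 3.07-fold (log2 1.62, SE 0.111, adjusted p = 9.67e-09, edgeR). Under FIPI the log2 fold change was -0.26 (95% interval -0.484 to -0.043, adjusted p = 0.123, edgeR), and the interval left out a fall as large as the limit of 0.5. Acaa1a overlaps exons of Myd88 on the opposite strand.

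**Figure D2:**
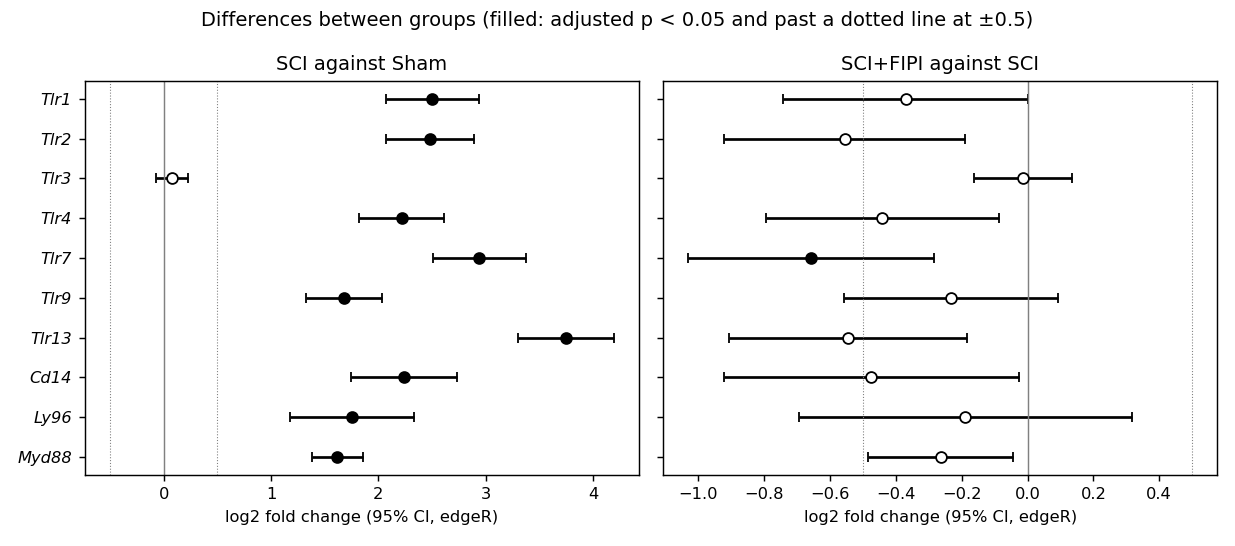
Log2 fold change of each gene with its 95% interval from edgeR, for SCI against Sham on the left and SCI+FIPI against SCI on the right. Filled points passed both limits, the dotted lines stand at -0.5 and 0.5, and the scales of the 2 panels differ. After injury 9 of 10 points are filled, and under FIPI only that of Tlr7 is.

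Counted together, 9 of the 10 genes were called higher in SCI than in Sham cord, where 24.4% of all genes tested were called higher and 47.0% were called in either direction. The median log2 fold change of the 10 genes was 2.23, against -0.003 over all genes tested. The groups did not overlap for all 10 genes, as for 70.5% of all genes. Under FIPI 1 of the 10 was called against the SCI group, where 3.06% of all genes were called and 0.695% were called lower. Their median log2 fold change was -0.41, all 10 values were below 0 (50.3% of all genes were), and the groups did not overlap for 5 of the 10 (30.2% of all genes). At an unadjusted p-value under 0.05 in the same edgeR fit 6 of the 10 were lower, as were 11.5% of all genes. The number past both limits turned on single mice. Without SCI mouse 1, which had the lowest Tlr2, Tlr4, Tlr7 and Cd14 of its group, those 4 genes were called, Tlr2 at -0.705, Tlr4 at -0.605 and Cd14 at -0.655 (adjusted p = 0.00241, 0.0142 and 0.00521, edgeR). SCI mouse 1 also had the lowest Tlr3, Tlr9, Tlr13 and Myd88 of its group, and those genes were not called without it. Tlr7 and Tlr13 were called without SCI+FIPI mouse 1.

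Compared with Sham, the SCI+FIPI group again had 9 genes called higher, all but Tlr3, where 21.2% of all genes tested were called higher. Their rises ran from 2.56-fold for Myd88 to 9.2-fold for Tlr13, with adjusted p-values of at most 0.000158 (edgeR). Tlr3 had a log2 fold change of 0.07 (adjusted p = 0.45, edgeR), and its groups overlapped. On the log2 scale, Tlr13 was 3.75 above Sham in the SCI group and 3.20 above it in the SCI+FIPI group, Tlr7 2.94 and 2.28, Tlr2 2.48 and 1.93, and Myd88 1.62 and 1.35. The comparisons share the Sham and SCI mice and are not independent of each other.

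In FPKM, the order of the levels was different in injured and uninjured cord. In the Sham group Cd14 was highest with 6.22 ± 0.859 FPKM (SD, n = 3), followed by Tlr3 with 4.73 ± 0.086 FPKM (SD, n = 3), while Myd88 (3.38) and Tlr2 (3.19) did not differ beyond their spread. Tlr7, Tlr9, Tlr13, Ly96, Tlr1 and Tlr4 followed at 1.58 to 0.521 FPKM, each within the spread of its neighbour. In the SCI group Cd14 led at 28.7 ± 7.55 FPKM (SD, n = 3), Tlr2 (17.4) and Tlr13 (14.2) followed within each other's spread, then Tlr7 (11.8) and Myd88 (10.2), and Tlr3 stood below them at 4.90 FPKM. The order in the SCI+FIPI group was Cd14 (21), Tlr2 (12), Tlr13 (9.87), Myd88 (8.60), Tlr7 (7.64) and Tlr3 (4.93), in which neighbours from Tlr2 to Tlr7 did not differ beyond their spread.

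The 12 Toll-like receptor genes with counts summed to 15.1, 15.8 and 12.4 FPKM in the Sham mice, 57.8, 71.7 and 70.5 FPKM in the SCI mice and 55.2, 43.4 and 48.3 FPKM in the SCI+FIPI mice. Tlr3 held 33.1% ± 4.56 of that sum in Sham, 7.41% ± 0.84 in SCI and 10.1% ± 0.934 in SCI+FIPI cord (SD, n = 3 each). Tlr13 held 7.46% ± 0.187 in Sham and 21.4% ± 1.68 in SCI cord, and Tlr7 10.9% ± 1.95 and 17.7% ± 0.539 (SD, n = 3 each). The groups did not overlap for 7 of the 12 shares after injury, with Tlr7, Tlr8 and Tlr13 higher and Tlr3, Tlr5, Tlr9 and Tlr12 lower in the SCI group (exact two-sided permutation test, p = 0.1 each, the smallest that 3 mice against 3 allow, adjusted p = 0.24 over 24 tests). The share of Tlr2, 21.9% in Sham and 25.9% in SCI cord, overlapped between them, as did that of Tlr4 at 3.60% and 3.54%. Between SCI+FIPI and SCI the shares of Tlr3 and Tlr12 were higher and that of Tlr7 was lower without overlap, at the same p-values. Shares of a sum depend on each other and do not give the direction of a gene's own level. Tlr9 and Tlr12 rose 3.21-fold and 2.65-fold after injury although their shares were lower. Under FIPI Tlr12 had a mean of 2.96 CPM, against 3.20 CPM in the SCI group, and Tlr3 a log2 fold change of -0.01.

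**Figure D3:**
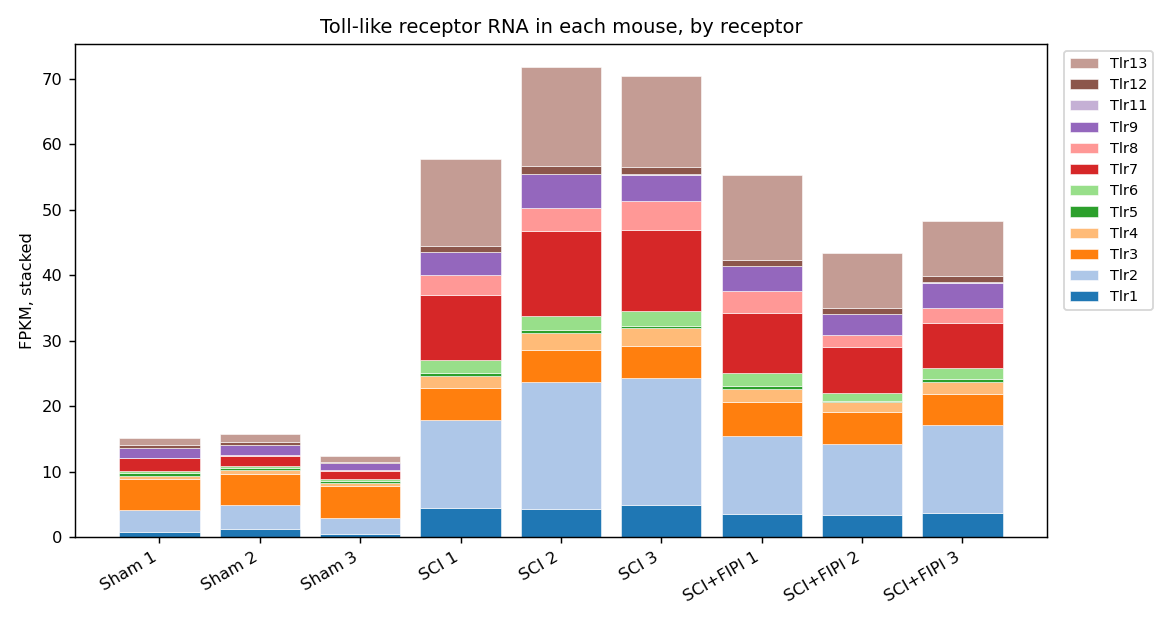
Level of the 12 Toll-like receptor genes in each of the 9 mice, in FPKM, stacked so that the height of a bar is their sum. The bars of SCI mice reach 57.8 to 71.7 FPKM and those of Sham mice 12.4 to 15.8 FPKM, and the segment of Tlr3 has nearly the same height in all of them.

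Markers of myeloid cells moved with these genes. All 10 pan-myeloid markers (Ptprc, Itgam, Aif1, Csf1r, Spi1, Cd68, Laptm5, Tyrobp, Fcer1g and Cd53) were called higher after injury (median log2 fold change 2.94), and their summed level was 308 to 420 CPM in Sham, 2380 to 2820 CPM in SCI and 1800 to 2190 CPM in SCI+FIPI mice. Itgam shares 72.4% of its 50-base stretches with the overlapping gene Gm49368. Under FIPI all 10 had log2 fold changes below 0, with a median of -0.42, and Spi1, which encodes PU.1, was called lower at -0.52 (SE 0.12, adjusted p = 0.0251, edgeR). In bulk tissue fewer cells of a type and less RNA per cell cannot be told apart.

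Other cell types were followed in the same way. Of 10 microglia markers 7 were called higher after injury (median log2 fold change 1.54, summed level 373 to 473 CPM in Sham, 1270 to 1520 CPM in SCI and 1100 to 1170 CPM in SCI+FIPI mice), and under FIPI their log2 fold changes ran from -0.52 to 0.40 with a median of -0.23. Of 10 markers of monocytes and infiltrating macrophages 9 were called higher after injury, with sums of 253 to 566 CPM in Sham, 2520 to 3320 CPM in SCI and 2180 to 2630 CPM in SCI+FIPI mice. The 10 neutrophil markers had log2 fold changes from -1.04 to 1.42 after injury (median -0.13). Under FIPI 9 of the 10 had values above 0, with a median of 0.67, and their sum was 56.2 to 69.8 CPM in the SCI mice and 23.8, 141 and 131 CPM in the SCI+FIPI mice, which lay on both sides of the SCI mice. B and T cell markers summed to at most 11.1 CPM in any mouse. Of 8 dendritic cell markers 4 were called higher and 1 lower after injury, of 7 astrocyte markers 3 higher and 1 lower, and of 6 endothelial markers 4 higher. Among all genes tested 24.4% were called higher after injury and 22.5% lower. Under FIPI the dendritic cell marker Cd209a was called lower (log2 -1.29, SE 0.375, adjusted p = 0.0444, edgeR). It was counted only 21 to 38 times in the SCI mice and 8 to 16 times in the SCI+FIPI mice. Flt3 of the same list went the other way, with 10.5 to 13.4 CPM in SCI and 14.8 to 16.1 CPM in SCI+FIPI mice. Of the 8 dendritic cell markers 6 had values below 0, and the median of the 8 was -0.16. All 6 endothelial markers had values below 0 with a median of -0.17. The 8 neuron markers were all called lower after injury and 5 of them higher under FIPI, where 3.06% of all genes tested were called in either direction. The 7 astrocyte markers had a median of -0.03 under FIPI. The part of these cell types in the differences of the 10 genes was not tested.

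Set against the mean log2 CPM of the 10 pan-myeloid markers in the same mouse, 8 of the 10 genes were lower in SCI than in Sham cord without overlap. The differences on this relative scale were -0.35 for Tlr1, -0.43 for Tlr2, -0.69 for Cd14, -0.72 for Tlr4, -1.15 for Ly96, -1.23 for Tlr9, -1.28 for Myd88 and -2.81 for Tlr3. Tlr13 was 0.84 higher without overlap, and Tlr7, at 0.04, overlapped. Each of the 9 separated genes had an exact two-sided permutation p of 0.1, the smallest possible, and an adjusted p of 0.182 over 20 tests. These signs depend on the markers, since a gene that rises less than they do falls on this scale. Tlr7, at 0.04, ranked 436 from the top of the 18699 genes by its fold change after injury. Of all genes tested, 97.7% had a fold change no larger than that of Tlr7. The exact share of all genes that fell on this scale was not computed. Since nearly all genes rose less than Tlr7, a fall on it was usual, and the count of 8 does not set these genes apart. Against the mean of the 10 microglia markers, which rose less, Tlr13 was 2.43 higher, Tlr7 1.63 higher and Tlr1 1.24 higher in SCI than in Sham cord, Myd88 was 0.32 higher, and only Tlr3 was lower, by a difference of -1.22.

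Between SCI+FIPI and SCI cord, 8 of the 10 genes overlapped on the scale relative to the pan-myeloid markers, with differences from -0.26 for Tlr7 to 0.22 for Ly96. Tlr3 (0.38) and Myd88 (0.14) were higher under FIPI without overlap (exact two-sided permutation test, p = 0.1 and adjusted p = 0.182 for each). Against the microglia markers the difference of Myd88 was -0.10 and that of Tlr7 was -0.50.

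**Figure D4:**
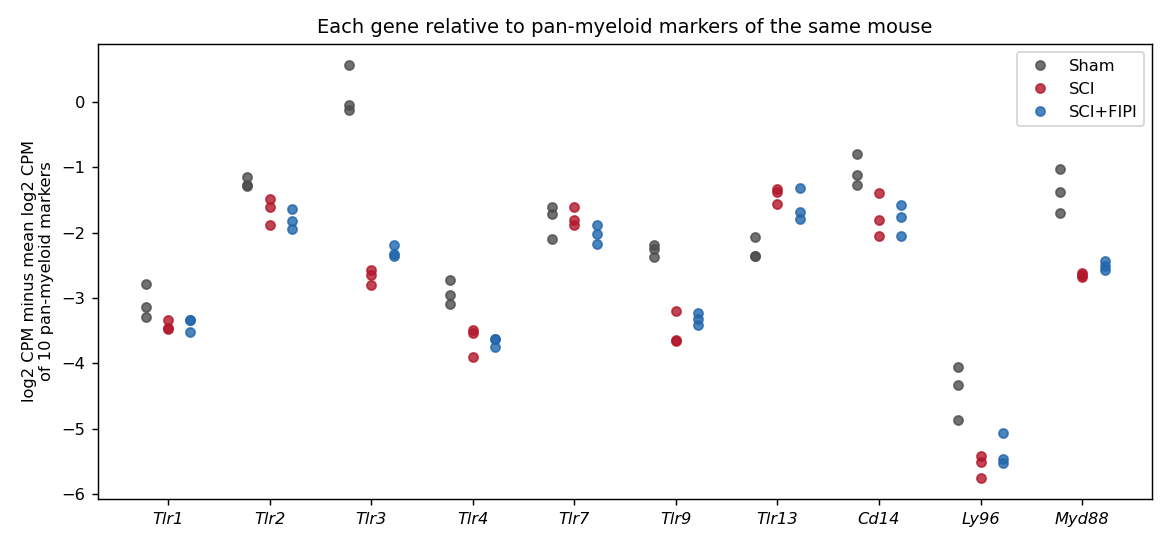
Log2 CPM of each gene minus the mean log2 CPM of the 10 pan-myeloid markers of the same mouse, with 1 point per mouse and the 3 groups side by side. Tlr13 lies higher in SCI than in Sham mice, Tlr3 lies 2.81 lower on average, and SCI and SCI+FIPI points overlap for 8 of the 10 genes.

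Across the 9 mice the genes other than Tlr3 followed each other, with a Pearson r of log2 CPM between 0.917 and 0.994 over their 36 pairs (median 0.976). Pairs with Tlr3 had r between 0.677 and 0.791. These values carry the differences between groups, which were large for the genes other than Tlr3 and small for Tlr3. After the group means were taken off, the median r was 0.554 for the 36 pairs, with a range of -0.03 to 0.882. For the 9 pairs with Tlr3 it was 0.00861, with a range of -0.283 (Tlr1) to 0.644 (Tlr13). The genes whose pattern over the 9 mice was most like each member were Clec2d and Aif1 for Tlr1 (r = 0.998 for both), Serpinf2 and Sbno2 for Tlr2, Bach1 and Klf6 for Tlr4, Msn and Naip5 for Tlr7, Tap1 and Sh3tc1 for Tlr9, and Cd53 and Havcr2 for Tlr13 (r = 0.999 for both). For Cd14 they were Stk17b and Itgb3, for Ly96 Btf3 and Sfxn2, and for Myd88 Itpripl2 and Ap5b1. Tlr3 had its closest patterns in Psmc3ip (r = 0.946) and Bloc1s6 (r = 0.937).

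The rest of the pathway was described from 8 lists of receptors, adaptors, trafficking factors, kinases, transcription factors, inhibitors, target genes and endogenous ligands, of which 84 of 89 genes were tested. After injury 56 were called higher and 4 lower (24.4% and 22.5% of all genes tested), and the median log2 fold change was 1.15. Tlr11 and the cytokine genes Il6, Il10, Il12b and Ifnb1 had too few counts to be tested.

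Among the other adaptors, 4 of 5 were called higher after injury and Sarm1, which restrains signaling through Ticam1 and acts in axon degeneration, was lower (log2 -0.85). Ticam2, the bridge from Tlr4 to Ticam1, rose by 2.69, Pik3ap1 by 2.46 and Ticam1 by 1.47 on the log2 scale. Ticam2 shares 19% of its 50-base stretches with Tmed7, which overlaps it. Of 11 genes for receptor trafficking and ligand transfer 8 were called higher. Cd36, a scavenger receptor that works with Tlr2, had the largest rise (log2 6.05, SE 0.591), from 1.39 to 6.39 CPM in Sham mice to 167 to 246 CPM in SCI mice. Cd180, a relative of Tlr4, rose by 3.52, Lbp by 3.02 and Unc93b1, which carries the endosomal receptors to their compartment, by 2.67 on the log2 scale.

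The kinases and ubiquitin enzymes differed from one another. Of 18 genes 8 were called higher, 2 lower and 8 neither, where 24.4% of all genes tested were called higher and 22.5% lower. Ikbke rose by 2.41, Map3k8 (Tpl2, which links NF-kappaB signaling to ERK) by 1.83, Ripk1 by 1.74 and Irak4, the first kinase to join Myd88, by 1.74 on the log2 scale, whereas Tab3 had -1.01 and Ube2n -0.66. All 11 transcription factor genes were called higher, with the largest log2 fold changes in Irf8 (2.59), Irf5 (2.54) and Fos (1.83). Of 12 inhibitors 7 were called higher, among them Il1rl1 (2.05), Tnfaip3 (A20, 2.04) and the pseudokinase Irak3 (1.66), and the deubiquitinase Cyld was lower at -0.74.

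Target genes of the pathway were called higher in 10 of 12 cases. The chemokines Cxcl2 (log2 4.18, SE 1.3) and Cxcl1 (3.85, SE 0.542) and the cytokines Il1b (3.04, SE 0.728) and Tnf (3.03, SE 0.358) had the largest values. Cxcl2 was counted only 2 to 7 times in the Sham mice and 19 to 194 times in the SCI mice. Cxcl1 was counted 2 to 4 and 19 to 56 times. Of 11 endogenous ligands 5 were called higher and 0 lower, where 24.4% and 22.5% of all genes tested were. The median was 0.39 on the log2 scale. Values were below 0 for 4 of the 11, of which 2 had an adjusted p-value under 0.05 (edgeR). The 5 called were the matrix genes Bgn (3.66), Fn1 (2.61), Tnc (2.54), Dcn (1.89) and Vcan (1.65), and Fn1 and Vcan also stood on the list of monocyte markers. The alarmin genes S100a8 and S100a9 did not pass (adjusted p = 0.737 and 0.955, edgeR). The chromatin protein gene Hmgb1 was higher without overlap (log2 0.39, adjusted p = 0.000103, edgeR) but stayed under the limit on the fold change. Of the 50-base stretches of Hmgb1 36.8% occur in other genes.

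Between SCI+FIPI and SCI cord 2 of the 84 genes were called, both lower. Of all genes tested 3.06% were called there and 0.695% were called lower. Tnf was counted 48, 101 and 78 times in the SCI mice and 45, 30 and 33 times in the SCI+FIPI mice (log2 -1.02, SE 0.292, adjusted p = 0.0408, edgeR). Map3k8 had 9.05, 10.5 and 11.4 CPM in the SCI mice and 7.28, 6.39 and 7.92 CPM in the SCI+FIPI mice (log2 -0.52, SE 0.141, adjusted p = 0.0336, edgeR). Map3k8 did not overlap between the groups, while Tnf stood at 2.01 CPM in both SCI mouse 1 and SCI+FIPI mouse 1. Log2 fold changes were below 0 for 75 of the 84 genes, with a median of -0.26 (50.3% of all genes, with a median of -0.001).

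With no limit on the fold change, 11 of the 84 genes were lower under FIPI at an adjusted p-value under 0.05 in edgeR's test, where 3.58% of all genes were, and Tab3 was higher (log2 0.39, adjusted p = 0.0136). The lower ones included Irak2 (-0.46, adjusted p = 0.00421), Irak4 (-0.37, adjusted p = 0.0394), Irf5 (-0.50, adjusted p = 0.00836), Rab7b (-0.50, adjusted p = 0.045), Ticam1 (-0.45, adjusted p = 0.031) and Nfkb1 (-0.30, adjusted p = 0.0112). The number past both limits depended on single mice, and was 0 when SCI mouse 2, SCI mouse 3 or SCI+FIPI mouse 2 was left out, 1 without SCI+FIPI mouse 3, 6 without SCI+FIPI mouse 1 and 11 without SCI mouse 1. Compared with Sham, the SCI+FIPI group had 50 of the 84 genes called higher and 6 lower (21.2% and 17.0% of all genes tested). The median of the 84 genes was 0.82 on the log2 scale.

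**Figure D5:**
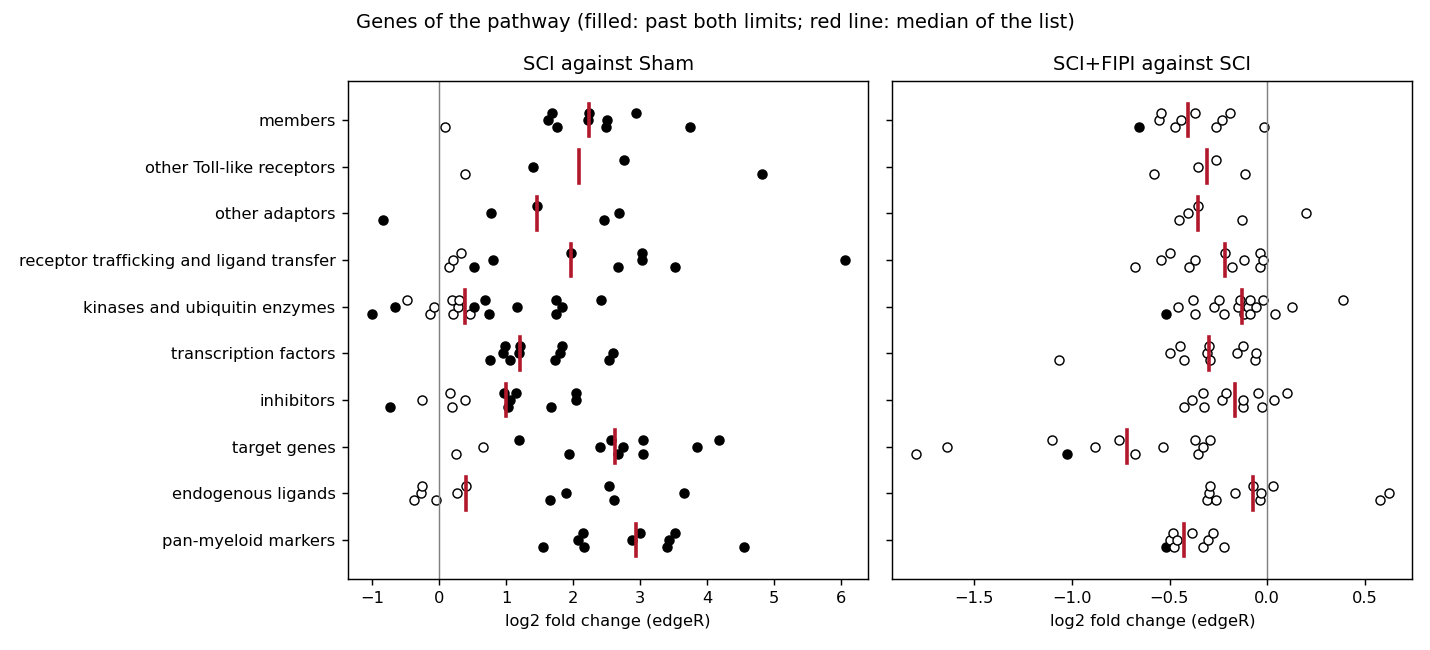
Log2 fold change of every tested gene of the 10 members, the 8 pathway lists and the pan-myeloid markers, for SCI against Sham on the left and SCI+FIPI against SCI on the right, on scales that differ. Filled points passed both limits and red lines are medians of a list. Under FIPI most points lie below 0 and only Tlr7, Map3k8, Tnf and Spi1 are filled.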

How the data were processed

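The labels and the study's methods place 9 mice in 3 groups of 3. Polyadenylated RNA was fragmented, primed at random and sequenced on the Illumina platform. The authors deposited raw counts for 52550 genes per mouse, without normalization. The submitters' processing notes name GRCm38 and R 4.2.3, and the aligner, the counting program and the use of strand are not given in the sources used here.

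Symbols, positions and exonic lengths came from GENCODE M21 (52403 identifiers matched). Counts were fitted in edgeR 4.0.16 under R 4.3.3 with TMM factors (0.985 to 1.02), filterByExpr by group and robust quasi-likelihood over all 9 mice (6 residual degrees of freedom, biological coefficient of variation 9.3%), and p-values were Benjamini-Hochberg adjusted over 18699 genes. The labels do not say that mice came from separate litters or days, and p-values measure the spread between these mice. Shares of FPKM and levels relative to markers used exact two-sided permutation tests, with log2 CPM at a prior count of 2. DESeq2 1.42.0 and limma 3.58.1 served as alternatives. Only the fits to counts were tested on simulated data, for SCI against Sham, with planted changes larger than those of the members under FIPI. Shares, levels relative to markers, correlations and promoter matches were not tested in this way. Figures were drawn with matplotlib 3.10.9.

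The members, lists and limits were chosen with earlier results of these data known. Named were all members, up to 3 called genes with the largest fold change and 1 further gene by role in each list and comparison, the 2 genes most like each member, and markers beside a result. The genes named for an adjusted p-value alone were chosen after their values were seen. Counts under about 100, as for Ly96, Tnf, Cxcl1, Cd209a and, in Sham cord, Tlr8 and Cxcl2, limit precision. A PCR step without molecular identifiers preceded counting.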

Additional observations from a re-analysis of the deposited data

How the results depend on the processing

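All 180 values of the 10 genes for SCI against Sham and all 180 for SCI+FIPI against Sham kept their direction and their side of the limits under RLE and upper-quartile factors, no filter or a minimum of 10 counts per mouse, the replicate block, offsets for GC content and length, fits to 2 groups, DESeq2, limma-voom, a log2 limit of 1 or none, and each mouse left out. For SCI+FIPI against SCI 161 of 180 did, 6 lost and 11 gained a call, and 2 reversed, both for Tlr3 (0.006 with upper-quartile factors and, with mice left out, -0.048 to 0.004). The number of members called there (1) was 3 with no filter or DESeq2, 2 with offsets, with block and offsets, or with limma-voom, and 0 with a log2 limit of 1. With the replicate block it was 0 (Tlr7 -0.67, adjusted p = 0.0544, edgeR). With single mice left out it ran from 0 to 4, with Tlr2, Tlr4, Tlr7 and Cd14 called without SCI mouse 1. Of the pathway genes 2 were called there. The number was 1 with upper-quartile factors, with the block, with block and offsets, or with a log2 limit of 1, 4 with DESeq2, 7 with no filter and 12 with no limit on the fold change, and 0 to 11 with mice left out. For SCI+FIPI against Sham a log2 limit of 1 left 35 of 56. With mice left out, the number of separated receptor shares under FIPI was 3 to 7, and of separated members relative to pan-myeloid markers 2 to 5. Replicate numbers name different animals, and deviations of same-numbered mice had r from -0.07 to 0.11, so that the pairing is by number alone. The cause of these shifts was not tested.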
